A study of Mus musculus with 28 samples.

Results

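Tail tendon of wild-type (WT) mice was compared between an established and an early cohort, using 13 of the 28 bulk RNA-sequencing libraries of the series. The members are all libraries labelled as WT controls: 7 early mice, stated to be 6 to 8 weeks old, and 6 established mice, stated to be older than 14 weeks. Each library came from the homogenized tail tendon fascicles of 1 mouse. All were C57BL/6J animals without the transgene, from the breeding of Fosl-2(Tg) mice, in which the murine *Fosl2* gene is expressed from a major histocompatibility complex class I promoter (H2Kb). The remaining 15 libraries are Fosl-2(Tg) mice, 8 early and 7 established, and serve here only to test whether the change between cohorts differed by genotype. The cohorts did not share a composition: all 7 early WT mice were male, whereas the established WT mice were 5 females and 1 male (replicate 5), and the library numbers of the cohorts ran in separate ranges. Age, sex and any batch that follows the library numbers can therefore not be told apart in the main comparison. Genes on chromosomes X and Y were left out for this reason.

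Tail tendon consists of fascicles of densely packed type I collagen fibrils, laid down by rows of tendon fibroblasts. During postnatal growth these cells secrete procollagen, remove its propeptides, crosslink the fibrils and coat them with small proteoglycans that control fibril width. As tendon matures, cell division becomes rare, the fibril network is completed and much of the collagen persists with little turnover.

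The counts per library summed to 9645598 to 42646727 in the early WT mice (median 19350426) and to 12186263 to 66894396 in the established WT mice, and the mean totals of the cohorts did not differ beyond the spread between mice (exact permutation test, two-sided, p = 0.396). Tendon identity genes were abundant in every library, with a summed level of 11 genes of 18543 to 44325 CPM in the early mice (median 30687) and 21620.1 to 40075 CPM in the established mice (median 37009.6), in counts scaled by library size and TMM factor (CPM). Skeletal muscle RNA varied most, and the sum of 44 muscle genes went from 573 to 35092 CPM in the early mice (median 5117) and 324 to 69665 CPM in the established mice (median 9215). The highest muscle sum belonged to the established male. Early replicates 4 and 5 stood apart from the other early mice with the most type I collagen RNA, and the share of all counts on *Col1a1*, *Col1a2* and *Col3a1* was 16.4% to 38% in the early and 8.10% to 16.1% in the established mice. *Fosl2* itself ranged from 59.1 to 137 CPM in the early mice (median 74.4) and 78.2 to 168 CPM in the established mice (median 105), without a difference past the threshold (log2 fold change 0.32 ± 0.21 SE, FDR = 0.382).

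In the comparison of established with early WT tendon, *Col1a2*, some of the enzymes that process and crosslink collagen, *Sparc* and the macrophage gene *Mpeg1* were lower in the established mice, with log2 fold changes of -1.21 for *Col1a2* and -1.36 for *Mpeg1*. The cystine importer *Slc7a11* was lower still (-2.01). The peroxidase *Gpx3* (2.72), the oxidase *Nox4* (1.64), the protease inhibitor *Timp3* (1.15) and the laminin *Lama5* (1.34) were higher. With sex as a covariate, *Col1a2* (FDR = 0.0775), *Mpeg1* (0.0852) and *Gpx3* (0.0517) did not pass. Of 15110 autosomal and mitochondrial genes tested with edgeR's quasi-likelihood test, 720 passed an FDR of 0.05 (4.77%), of which 296 were higher (1.96%) and 424 lower (2.81%) in established mice. The 201 genes that also differed by a log2 value of 1 or more (1.33%) are called DEGs, with 84 higher (0.556%) and 117 lower (0.774%). Every established mouse lay above every early mouse for 149 genes (0.986%) and below every early mouse for 193 genes (1.28%), together 342 genes (2.26%), among them 41 of the higher and 47 of the lower DEGs. The median log2 fold change of all genes tested was 0.01. In bulk tissue, fewer cells of a type and less RNA per cell cannot be told apart. Of the DEGs, 22 carried only a clone-type symbol and 17 were loci awaiting experimental support. The number of genes past the threshold depended on single mice. The number of lower genes was 251 without early replicate 6, and 157, 134, 136 and 238 without established replicates 1, 3, 4 and 5. Leaving out a mouse also brought the higher genes to 161, 173, 159 and 140 without early replicates 1, 4, 5 and 6 and to 115, 98, 90 and 184 without established replicates 1, 3, 4 and 5.

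**Figure D1:**
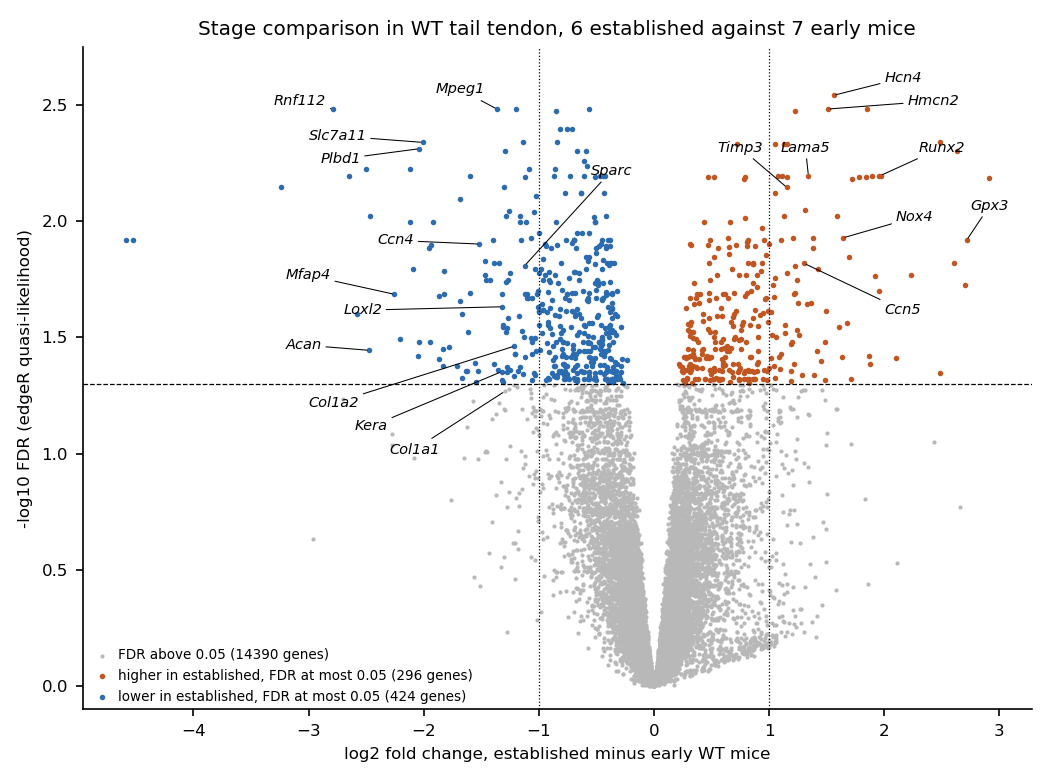
Each point is 1 of the 15110 genes tested, with the log2 fold change of established against early WT mice on the x axis and the -log10 FDR of edgeR's quasi-likelihood test on the y axis. The 424 lower genes (blue) and 296 higher genes (orange) lie above the dashed line at an FDR of 0.05, the dotted lines mark a 1-unit log2 change, and *Col1a1* lies just under the FDR line.

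The established male gave the only sex-matched value, because the early mice were all male. For the 720 genes past the threshold, this male lay on the established side of the early mean for 295 of 296 higher and all 424 lower genes, but he had taken part in those calls. When the genes were called without him, 179 higher and 234 lower genes that had also been tested with him were left to place him. He then lay on the established side of the early mean for 173 of the 179 higher (96.6%) and 230 of the 234 lower genes (98.3%), and nearer to the established females than to the early males for 130 (72.6%) and 202 (86.3%). Over all genes tested, split by the sign of their fold change in the main fit, the shares on the established side were 81.5% and 75.0%. The male took part in that fit, so these shares are not a baseline for a mouse left out. The male reached a median of 0.77 of the shift of the females for the higher and 0.95 for the lower genes. In a fit of the males alone, 7 against 1, no gene passed the threshold by edgeR, and 1166 of 15916 genes had an unadjusted p under 0.05. With sex as a covariate, estimated over all 28 libraries, 169 genes were higher and 250 lower. The fit with sex takes its sex-matched information from 1 established male of each genotype, and the fit of males alone from the WT one. Its sex term was shared by both genotypes, so sex differences among the Fosl-2(Tg) mice also shift the WT values. For *Col1a2* it gave a log2 fold change of -2.33. Against the early mean, the WT females were at -1.08 and the WT male at -1.40. The sex-adjusted values are therefore not corrected within WT mice alone.

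Over the 500 most variable genes, principal component 1 took up 80.7% of the variance among the 13 mice and followed their muscle RNA, with no separation of cohorts (difference of cohort means, exact permutation test, two-sided, p = 0.830). The second component held 6.40% and separated the cohorts completely, with early mice between -17.0 and -0.151 and established mice between 7.61 and 13.4 (exact permutation test, two-sided, p = 0.000583, the smallest value that the groupings of 13 mice allow). The established male (10.3) lay among the established females on this component. The share of the variance between cohorts was 6.14%, which did not exceed what groupings of the same mice give (exact permutation test, one-sided, p = 0.426, median over groupings 4.88%).

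**Figure D2:**
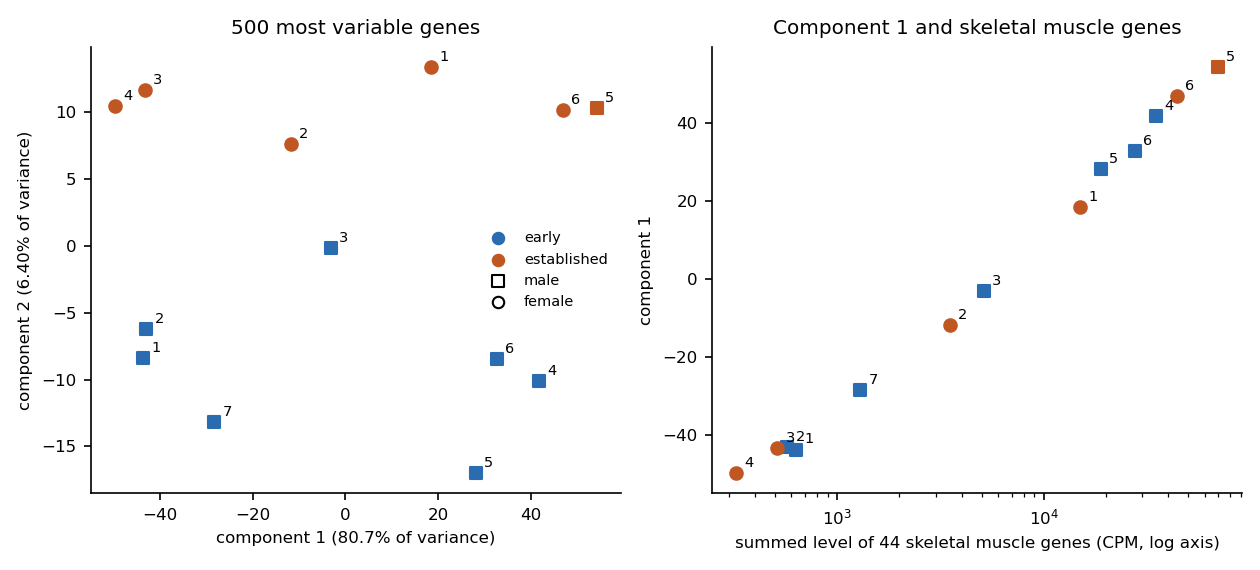
The left panel places the 13 WT mice on the first 2 principal components of the 500 most variable genes, in log2 CPM units, and the right panel plots component 1 against the summed level of 44 skeletal muscle genes on a log axis. Squares are males, circles females and the numbers are replicate numbers. All established mice lie above all early mice on component 2, while component 1 follows the muscle sum in both cohorts.

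The extracellular matrix lists held more lower than higher genes. Of 186 matrix genes tested over 10 lists, 21 were lower (11.3%, against 2.81% of all genes tested) and 5 higher (2.69%, against 1.96%). All gene lists were chosen with earlier results of these data known, so such shares only describe the data. The lower genes were spread over collagens, processing and crosslinking enzymes, proteoglycans, matricellular proteins and proteinases, and the higher genes were *Runx2*, *Ccn5*, *Timp3*, *Col20a1* and *Col17a1*. The 21 lower genes were chosen with all 13 mice, so fits of subsets of these mice are not separate evidence of their direction. Without early replicates 4 and 5, 10 of the 21 passed and their median log2 fold change went from -1.10 to -0.76. With sex as a covariate 10 passed, with the muscle score as a covariate 21 passed, and in the 7 libraries whose muscle list summed to at most 10000 CPM 1 passed. Those 7 libraries included neither early replicates 4 and 5 nor the established male. Muscle RNA can there not be told apart from the loss of these mice or the smaller number of mice. The number of lower matrix genes was 12 without early replicate 4 and 6, 5, 5 and 9 without established replicates 1, 3, 4 and 5.

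Among 11 fibril-forming collagens, all with negative log2 fold changes (median -0.47, against 0.01 over all genes tested), *Col1a2* and *Col11a1* were lower. *Col1a2* (ENSMUSG00000029661, GRCm39 chr6:4504814-4541555, plus strand), the second chain of type I collagen, ranged from 54990.1 to 168629.7 CPM in the early mice (median 72479.7) and 28886 to 53170.1 CPM in the established mice (median 41314). Even the lowest early mouse was above the highest established mouse, and early replicates 4 and 5 were the highest of all. The difference passed the threshold (log2 fold change -1.21 ± 0.29 SE, FDR = 0.0345) and was -0.83 (FDR = 0.0688 by edgeR) without early replicates 4 and 5. *Col11a1*, a minor collagen that starts and limits fibril growth, went from 549 to 1364 CPM in the early mice (median 714) and 369 to 514 CPM in the established mice (median 399). Its cohorts did not overlap either (log2 fold change -0.92 ± 0.21 SE, FDR = 0.0271). For *Col1a1*, the main chain of type I collagen, the values were 100708 to 350859.7 CPM in the early mice (median 119037) and 44430.1 to 99152 CPM in the established mice (median 73907). Every early mouse again exceeded every established mouse, but the spread among the early mice was wide and the FDR stayed just above the threshold (log2 fold change -1.30 ± 0.36 SE, FDR = 0.0540). Among 24 other collagens, *Col6a2*, a chain of the microfibrillar collagen VI around cells, was lower (1504 to 3197 CPM early (median 1889.6) and 983 to 1551 CPM established (median 1179), log2 fold change -0.85 ± 0.20 SE, FDR = 0.0332) and *Col20a1*, a fibril-associated collagen, was higher (6.56 to 11.2 CPM early (median 7.14) and 10.8 to 16.7 CPM established (median 14.4), log2 fold change 0.81 ± 0.15 SE, FDR = 0.0120). *Col3a1*, the collagen of young and healing tissue, was at 857 to 1855 CPM in the early mice (median 1403) and 478 to 2834 CPM in the established mice (median 649). The cohorts overlapped because established replicate 2 had the highest value of all 13 mice (log2 fold change -0.47 ± 0.39 SE, FDR = 0.509), and *Col5a1*, which nucleates collagen I fibrils, did not pass either (log2 fold change -0.43 ± 0.18 SE, FDR = 0.178). Leaving out 1 mouse at a time, the calls of *Col1a2*, *Col11a1* and *Col6a2* were lost in 7, 3 and 8 of the 13 fits, at FDRs of up to 0.0846, 0.0699 and 0.0810 in that order. These fits lacked, in turn, early replicates 1, 4 and 5 and established replicates 1, 3, 4, 5 and 6. In the fit with a sex term, *Col1a2*, *Col11a1*, *Col6a2* and *Col20a1* did not pass, with log2 fold changes of -2.33 (FDR = 0.0775), -1.78 (0.0536), -1.63 (0.0576) and 0.55 (0.149) in that order.

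The 250 bases before the annotated start of *Col1a2* and *Col11a1* are shown because both fibril collagen genes fell and both windows hold a CCAAT box, a motif of many promoters. The sequences are from RefSeq on GRCm38.p6, plus strand, at chr6:4505368-4505617 and chr3:114030290-114030539, and capitals mark CCAAT or its reverse complement ATTGG, whose first bases lie 109 and 79 bases before the start.
Col1a2: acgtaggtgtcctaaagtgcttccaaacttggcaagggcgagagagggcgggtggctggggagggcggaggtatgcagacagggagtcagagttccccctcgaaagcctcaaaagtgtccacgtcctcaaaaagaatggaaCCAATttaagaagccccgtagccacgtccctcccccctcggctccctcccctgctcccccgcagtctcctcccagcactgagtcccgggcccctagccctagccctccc
Col11a1: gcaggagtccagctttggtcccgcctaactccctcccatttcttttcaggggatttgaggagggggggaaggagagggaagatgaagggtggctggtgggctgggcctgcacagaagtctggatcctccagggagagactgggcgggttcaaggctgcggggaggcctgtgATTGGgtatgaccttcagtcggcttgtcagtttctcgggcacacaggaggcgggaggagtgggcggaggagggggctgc
Of the 21 lower matrix genes, 12 had such a window, and CCAAT on either strand was in 6 of them, beside 35.6% of the 10443 tested genes with a window. The letters TTTGAA, the core of the cell cycle homology region, and the E2F words TTTGGCGC and TTTCCCGC were in none of the 12 windows, and in 10.7%, 0.747% and 1.69% of the windows of tested genes. These matches describe letters only, and binding was not measured.

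**Figure D3:**
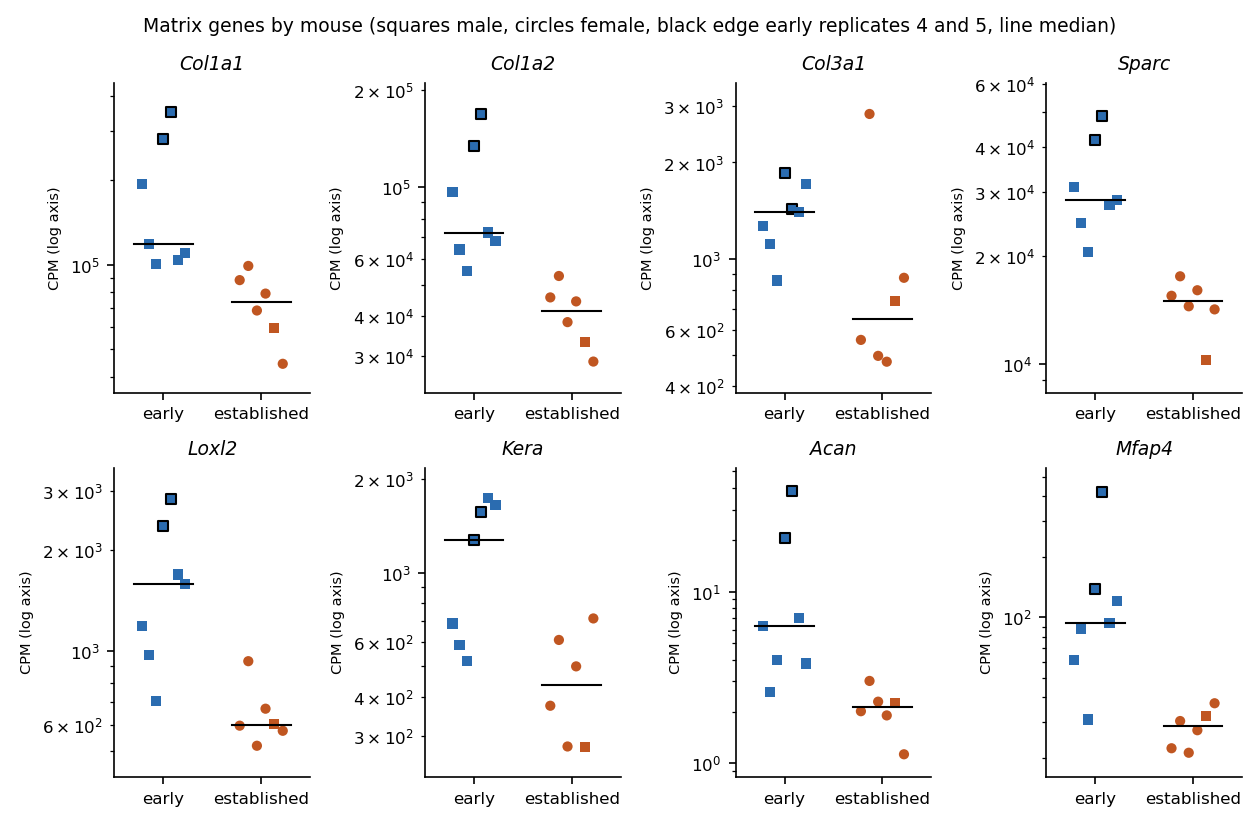
Levels of 8 matrix genes in CPM on log axes, with 1 point per mouse (7 early in blue, 6 established in orange), squares for males, circles for females, black edges for early replicates 4 and 5, and lines at the medians. *Col1a1*, *Col1a2* and *Sparc* do not overlap between cohorts, *Loxl2*, *Kera*, *Acan* and *Mfap4* overlap in part, and the highest *Col3a1* value belongs to an established mouse.

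Enzymes that fold, trim and crosslink collagen were lower in part. Of 29 genes for collagen folding, modification and processing, 3 were lower (10.3%, against 2.81% of all genes) and none higher (median -0.33). *Plod1*, a lysyl hydroxylase that prepares collagen for crosslinking, was at 190.1 to 325 CPM in the early mice (median 217) and 117 to 163 CPM in the established mice (median 131). Its cohorts did not overlap (log2 fold change -0.85 ± 0.15 SE, FDR = 0.0100), and it passed in all 13 fits that left out 1 mouse. *Bmp1*, the protease that removes the C-terminal propeptide, was at 334 to 522 CPM in the early mice (median 353) and 192 to 306 CPM in the established mice (median 250.4). It was likewise lower in every established than in every early mouse (log2 fold change -0.68 ± 0.14 SE, FDR = 0.0165). *Adamts2*, which removes the N-terminal propeptide, was lower with overlap (842 to 1906 CPM early (median 1099) and 526 to 925 CPM established (median 738), log2 fold change -0.76 ± 0.20 SE, FDR = 0.0474). Among 7 crosslinking enzymes, 3 were lower (42.9%, median -0.60). The lysyl oxidase *Loxl2* ranged from 707 to 2838 CPM in the early mice (median 1585) and 518 to 929 CPM in the established mice (median 599). Only early replicate 3 was below the highest established mouse (log2 fold change -1.32 ± 0.29 SE, FDR = 0.0233). *Lox*, the main lysyl oxidase of collagen and elastin, was at 2512 to 4834 CPM in the early mice (median 3479.8) and 1422 to 2764 CPM in the established mice (median 2030.5). The shift was smaller and the cohorts overlapped (log2 fold change -0.79 ± 0.20 SE, FDR = 0.0413). *Tgm2*, a transglutaminase, fell as well (log2 fold change -0.89 ± 0.23 SE, FDR = 0.0451). When 1 mouse was left out, the calls of *Adamts2*, *Loxl2*, *Lox* and *Tgm2* were lost in 8, 3, 10 and 10 of the 13 fits, at FDRs of up to 0.0993, 0.0638, 0.1002 and 0.109 in that order. The mice left out in these fits were early replicates 1, 3, 4, 5, 6 and 7 and established replicates 1, 2, 3, 4, 5 and 6. Once sex entered the fit, *Tgm2* did not pass, with a log2 fold change of -0.95 (FDR = 0.182).

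Proteoglycans were divided. The small leucine-rich proteoglycans *Fmod*, *Dcn* and *Lum* did not pass the test. *Fmod* was at 9289.5 to 27506 CPM early (median 18963) and 12439 to 26326 CPM established (median 23872). *Dcn* was at 5882 to 13478 CPM early (median 6590.1) and 4909.7 to 9239 CPM established (median 6423). *Lum* was at 198 to 454 CPM early (median 402) and 250.5 to 515 CPM established (median 363). For these 3 genes the cohorts overlapped widely and the log2 fold changes were 0.22 (FDR = 0.671), -0.26 (FDR = 0.529) and 0.09 (FDR = 0.823). Of 27 proteoglycan genes, 4 were lower (14.8%, against 2.81% of all genes) and none higher (median -0.11). *Kera*, the keratan sulfate proteoglycan keratocan and also a small leucine-rich proteoglycan, ranged from 519.8 to 1734 CPM in the early mice (median 1278) and 276 to 713 CPM in the established mice (median 437). It was the only one of 11 tendon identity genes past the threshold (log2 fold change -1.32 ± 0.34 SE, FDR = 0.0444), and its log2 fold change was -1.19 (FDR = 0.119) without early replicates 4 and 5. Early replicates 1, 2 and 3 had 687, 587 and 519.8 CPM, within the established range. Early replicates 4, 5, 6 and 7 had 1278, 1569, 1734 and 1648 CPM, so the fall rested on these mice. *Acan*, encoding aggrecan, the large proteoglycan of cartilage and of compressed tendon, was at 2.59 to 38.5 CPM in the early mice (median 6.30) and 1.13 to 3.02 CPM in the established mice (median 2.13). The 2 highest values, 20.5 and 38.5 CPM, were early replicates 4 and 5 (log2 fold change -2.47 ± 0.60 SE, FDR = 0.0360), and without them the log2 fold change was -1.19 (FDR = 0.0466). *Bcan* and *Hapln4*, a lectican and a link protein that joins lecticans to hyaluronan, were lower (log2 fold change -2.04 ± 0.49 SE, FDR = 0.0330, and log2 fold change -1.55 ± 0.39 SE, FDR = 0.0408). Without those mice their log2 fold changes were -1.17 (FDR = 0.0389) and -0.97 (FDR = 0.0959). The X-linked genes *Bgn* and *Tnmd* were not analysed here. Leaving out 1 mouse at a time, the calls of *Kera*, *Acan*, *Bcan* and *Hapln4* were lost in 8, 6, 6 and 9 of the 13 fits, at FDRs of up to 0.106, 0.0853, 0.0825 and 0.0984 in that order. These fits lacked, in turn, early replicates 1, 4, 5, 6 and 7 and established replicates 1, 3, 4, 5 and 6. In the fit with a sex term, *Kera*, *Acan* and *Bcan* did not pass, with log2 fold changes of -2.93 (FDR = 0.0869), -3.05 (0.147) and -2.49 (0.0850) in that order.

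Matricellular genes changed in both directions. *Sparc*, which binds collagen and accompanies its secretion, ranged from 20501 to 48856 CPM in the early mice (median 28545) and 10274 to 17513 CPM in the established mice (median 14958). Its cohorts did not overlap (log2 fold change -1.12 ± 0.22 SE, FDR = 0.0155), and it was past the threshold in all 13 fits that left out 1 mouse. *Ccn4*, a secreted CCN family protein, was at 57.7 to 199 CPM in the early mice (median 70.3) and 28.9 to 39.1 CPM in the established mice (median 33.7). All established mice were below all early mice (log2 fold change -1.52 ± 0.28 SE, FDR = 0.0125). Its relative *Ccn5* moved the other way, with 15.2 to 56.2 CPM in the early mice (median 36.1) and 62.9 to 133 CPM in the established mice (median 80.8). No early mouse reached the lowest established mouse (log2 fold change 1.30 ± 0.26 SE, FDR = 0.0152). Of 28 matricellular genes, *Matn2* (log2 fold change -0.57 ± 0.12 SE, FDR = 0.0221) and *Vit* (log2 fold change -0.45 ± 0.10 SE, FDR = 0.0214), which encode matrix adaptor proteins, were the other lower genes, while *Comp* (log2 fold change 0.67, FDR = 0.138) and *Thbs4* (-0.14, FDR = 0.643), thrombospondins of tendon, did not pass. Among 18 elastic fibre genes, only *Mfap4*, a microfibril-associated glycoprotein, was lower (31.1 to 418 CPM early (median 93.8) and 21.2 to 37.4 CPM established (median 28.97), log2 fold change -2.26 ± 0.48 SE, FDR = 0.0206). Without early replicates 4 and 5 its log2 fold change was -1.48 (FDR = 0.0228). In fits without 1 mouse, the calls of *Matn2*, *Vit* and *Mfap4* were lost in 3, 2 and 3 of the 13 fits, at FDRs of up to 0.0632, 0.0571 and 0.0577 in that order. Those losses came from the omission of established replicates 1, 3 and 4. After adjustment for sex over all 28 libraries, *Ccn4*, *Vit* and *Mfap4* did not pass, with log2 fold changes of -1.80 (FDR = 0.0567), -0.42 (0.213) and -2.90 (0.143) in that order.

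Of 30 proteinases and inhibitors, *Mmp23* (log2 fold change -1.10 ± 0.23 SE, FDR = 0.0213) and *Mmp24* (log2 fold change -0.39 ± 0.09 SE, FDR = 0.0314), both membrane-bound metalloproteinases, were lower, and the inhibitor *Timp3* was higher. *Mmp24os1*, which overlaps *Mmp24* on the opposite strand, fell in parallel from a mean of 35.5 to 27.4 CPM. Its part in the *Mmp24* count was not tested. *Timp3* ranged from 176 to 364 CPM in the early mice (median 237) and 404 to 743 CPM in the established mice (median 505). The cohorts did not overlap, with the nearest values at 364 and 404 CPM (log2 fold change 1.15 ± 0.19 SE, FDR = 0.00714). *Syn3*, whose gene spans *Timp3* on the opposite strand, rose in parallel (log2 fold change 1.16 ± 0.19 SE, FDR = 0.00647), and as the strand setting of the counting is not given in the sources used here, reads of these genes cannot be told apart. *Runx2*, a transcription factor of bone and of cartilage maturation, was the only higher gene of 13 cartilage and bone genes (1.64 to 5.93 CPM early (median 2.81) and 7.22 to 20.6 CPM established (median 11.5), log2 fold change 1.97 ± 0.31 SE, FDR = 0.00636), without overlap. In the same list *Acan* and *Ucma* were lower. *Ucma*, a cartilage matrix protein (-1.62, FDR = 0.0299), and *Col17a1* above, a hemidesmosome collagen (0.65, FDR = 0.0129), were under 5 CPM on average and named after their values were seen. Among tendon identity genes, the transcription factors *Scx* (log2 fold change -0.44 ± 0.24 SE, FDR = 0.297) and *Mkx* (log2 fold change -0.36 ± 0.12 SE, FDR = 0.0910) did not pass. With sex as a covariate *Mkx* passed, with a log2 fold change of -0.92 (FDR = 0.0291), from a sex term shared with the Fosl-2(Tg) mice. In the WT males alone its log2 fold change was -0.71. Without 1 of the mice, the calls of *Mmp23* and *Mmp24* were lost in 3 and 3 of the 13 fits, at FDRs of up to 0.0582 and 0.0706 in that order. The omitted mice were established replicates 1, 3, 4 and 5. When sex was fitted as well, *Runx2* did not pass, with a log2 fold change of 1.005 (FDR = 0.188).

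Ribosomal protein genes lay lower as a list, with few calls. All 75 cytosolic ribosomal protein genes had negative log2 fold changes, with a median of -0.56, and 9 were lower (2.81% of all genes were). Their summed level was 14905 to 31878 CPM in the early mice (median 18244) and 11191 to 20265 CPM in the established mice (median 13246). *Rpl41* (log2 fold change -0.94 ± 0.25 SE, FDR = 0.0483), *Rps29* (log2 fold change -0.79 ± 0.20 SE, FDR = 0.0375), *Rpl23* (log2 fold change -0.77 ± 0.20 SE, FDR = 0.0441) and *Rps21* (log2 fold change -0.76 ± 0.19 SE, FDR = 0.0385) were the most changed of the 9, and were overlapping between cohorts. The count was 1 without early replicate 6 and without each of established replicates 1 to 5, 3, 4, 5 and 4 without early replicates 1, 4, 5 and 7, 15 and 19 without early replicates 2 and 3, and 33 without established replicate 6. With sex as a covariate it was 0, by edgeR. Many ribosomal protein genes have processed copies, so these counts are uncertain where reads map to several places. The 47 genes for folding and transport in the endoplasmic reticulum had a median of -0.24 and none passed by edgeR, with 0 higher and 17 lower at an unadjusted p under 0.05. When 1 mouse was left out, the calls of *Rpl41*, *Rps29*, *Rpl23* and *Rps21* were lost in 10, 6, 10 and 8 of the 13 fits, at FDRs of up to 0.109, 0.0953, 0.106 and 0.0961 in that order. The mice left out in these fits were early replicates 1, 4, 5, 6 and 7 and established replicates 1, 2, 3, 4 and 5. Once sex entered the fit, *Rpl41*, *Rps29*, *Rpl23* and *Rps21* did not pass, with log2 fold changes of -0.81 (FDR = 0.186), -0.53 (0.400), -0.50 (0.417) and -0.53 (0.453) in that order.

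**Figure D4:**
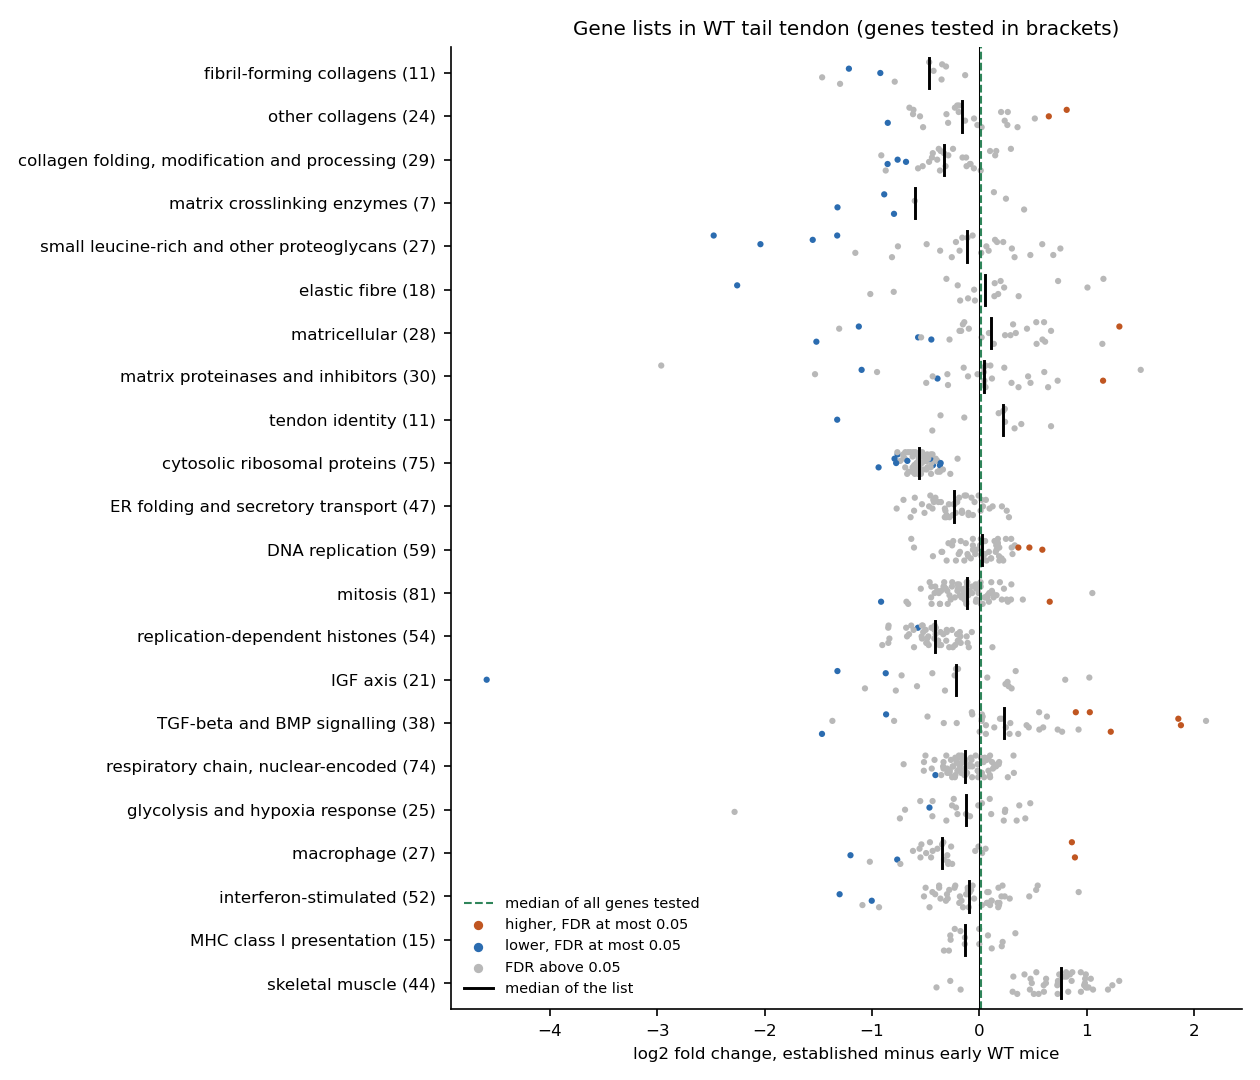
Log2 fold changes of established against early WT mice for the tested members of 22 gene lists, with 1 point per gene, coloured where the FDR was at most 0.05 (blue lower, orange higher), a black line at each list's median and a dashed green line at the median of all genes tested (0.01). Fibril collagens and ribosomal proteins lie to the left as whole lists, while skeletal muscle genes lie to the right with none past the threshold.

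Among genes with a mean of at least 5 CPM and an ordinary symbol, those with the largest rise and no overlap between cohorts included a pair of redox enzymes. *Gpx3* (ENSMUSG00000018339, GRCm39 chr11:54793279-54802424, plus strand), the secreted glutathione peroxidase that removes peroxides outside cells, ranged from 14.98 to 114 CPM in the early mice (median 48.7) and 126 to 605 CPM in the established mice (median 349). All established mice were above all early mice, but the lowest of them was the male (125.7 CPM), who was nearer to the early males than to the females (log2 fold change 2.72 ± 0.50 SE, FDR = 0.0120). *Nox4*, a NADPH oxidase that produces hydrogen peroxide, was at 2.16 to 5.89 CPM in the early mice (median 4.53) and 8.64 to 25.6 CPM in the established mice (median 12.02). The male had the lowest established value here too, yet above every early mouse (log2 fold change 1.64 ± 0.30 SE, FDR = 0.0118). After adjustment for sex over all 28 libraries, *Gpx3* did not pass, with a log2 fold change of 2.27 (FDR = 0.0517).

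Matrix and membrane genes formed the next group. *Hmcn2*, encoding the matrix protein hemicentin 2, went from 78.8 to 141 CPM in the early mice (median 135) and 226 to 433 CPM in the established mice (median 364). The male (338 CPM) lay within the range of the females (log2 fold change 1.51 ± 0.18 SE, FDR = 0.00329). *Lama5*, the laminin alpha chain of mature basement membranes, was at 4.75 to 14.99 CPM in the early mice (median 10.7) and 23.6 to 30.3 CPM in the established mice (median 25.8). Here the male was the highest of all mice (log2 fold change 1.34 ± 0.21 SE, FDR = 0.00636). *Hcn4*, a pacemaker-type cation channel, had the lowest FDR of all genes tested (3.24 to 5.81 CPM early (median 4.24) and 9.63 to 17.5 CPM established (median 13.3), log2 fold change 1.56 ± 0.17 SE, FDR = 0.00287). The other rising genes of this kind were *Adcy5*, an adenylate cyclase (log2 fold change 1.23 ± 0.16 SE, FDR = 0.00335), *Bok*, a BCL2 family member (log2 fold change 1.15 ± 0.16 SE, FDR = 0.00465), and *Ednra*, an endothelin receptor (log2 fold change 1.20 ± 0.29 SE, FDR = 0.0330). Without 1 of the mice, the call of *Ednra* was lost in 8 of the 13 fits, at an FDR of up to 0.0740. The omitted mice were early replicates 1, 2, 6 and 7 and established replicates 1, 3, 4 and 6. When sex was fitted as well, *Hcn4* and *Ednra* did not pass, with log2 fold changes of 0.83 (FDR = 0.110) and 0.93 (0.133) in that order.

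Among genes with a mean of at least 5 CPM and an ordinary symbol, those with the largest fall and no overlap included a cystine importer and a peroxidase. *Slc7a11* (ENSMUSG00000027737, GRCm39 chr3:49846975-50398070, minus strand), which imports cystine for glutathione synthesis, ranged from 64.6 to 178 CPM in the early mice (median 97.5) and 15.8 to 48.8 CPM in the established mice (median 27.9). The male had the lowest value of all (log2 fold change -2.01 ± 0.28 SE, FDR = 0.00458). *Gpx7*, a peroxidase of the endoplasmic reticulum, was at 21.8 to 60.4 CPM in the early mice (median 52.3) and 13.4 to 20.2 CPM in the established mice (median 15.5). All 6 established mice were below the early range (log2 fold change -1.35 ± 0.26 SE, FDR = 0.0152). The early mice were split, with 21.8 to 25.0 CPM in replicates 1 to 3 and 52.3 to 60.4 CPM in replicates 4 to 7. Early replicates 1 to 3 were likewise nearer to the established mice for *Plbd1*, *Kcnk1*, *Loxl2*, *Kera* and *Gpx3*. The reverse held for *Nox4* and *Ednra*. Fosl-2(Tg) libraries lie between early WT replicates 3 and 4 in the library order. The cause of this split was not tested. *Fgfr4*, a fibroblast growth factor receptor, was lower as well (log2 fold change -1.43 ± 0.29 SE, FDR = 0.0180). When 1 mouse was left out, the call of *Fgfr4* was lost in 1 of the 13 fits, at an FDR of up to 0.0516. The mouse left out there was established replicate 3.

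The other genes of this group were of mixed function. *Rnf112*, a RING finger ubiquitin ligase, ranged from 6.09 to 24.4 CPM in the early mice (median 7.09) and 1.03 to 1.80 CPM in the established mice (median 1.43). Early replicate 5 (24.4 CPM) was far above the other early mice, but the cohorts were apart without it too (log2 fold change -2.79 ± 0.35 SE, FDR = 0.00329). *Rtl1*, a retrotransposon-derived imprinted gene of fetal growth, was at 13.4 to 46.9 CPM in the early mice (median 27.2) and 3.66 to 12.3 CPM in the established mice (median 7.51). The cohorts lay close at their nearest values, 13.4 and 12.3 CPM (log2 fold change -1.92 ± 0.34 SE, FDR = 0.0101). The neurexophilin *Nxph4* (log2 fold change -2.12 ± 0.32 SE, FDR = 0.00597), the phospholipase B-like *Plbd1* (log2 fold change -2.04 ± 0.29 SE, FDR = 0.00488), *Kcnk1*, a potassium channel (log2 fold change -1.94 ± 0.36 SE, FDR = 0.0127), and *Tmem132e* (log2 fold change -1.47 ± 0.30 SE, FDR = 0.0170) were also lower without overlap. *Serpina3n*, a secreted serine protease inhibitor, was at 37.6 to 61.3 CPM in the early mice (median 43.9) and 7.37 to 27.6 CPM in the established mice (median 12.2). Its highest established value was the male (27.6 CPM), nearer to the early males (log2 fold change -1.69 ± 0.28 SE, FDR = 0.00801). In the fit with a sex term, *Rtl1* and *Serpina3n* did not pass, with log2 fold changes of -1.74 (FDR = 0.0565) and -0.95 (0.296) in that order.

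**Figure D5:**
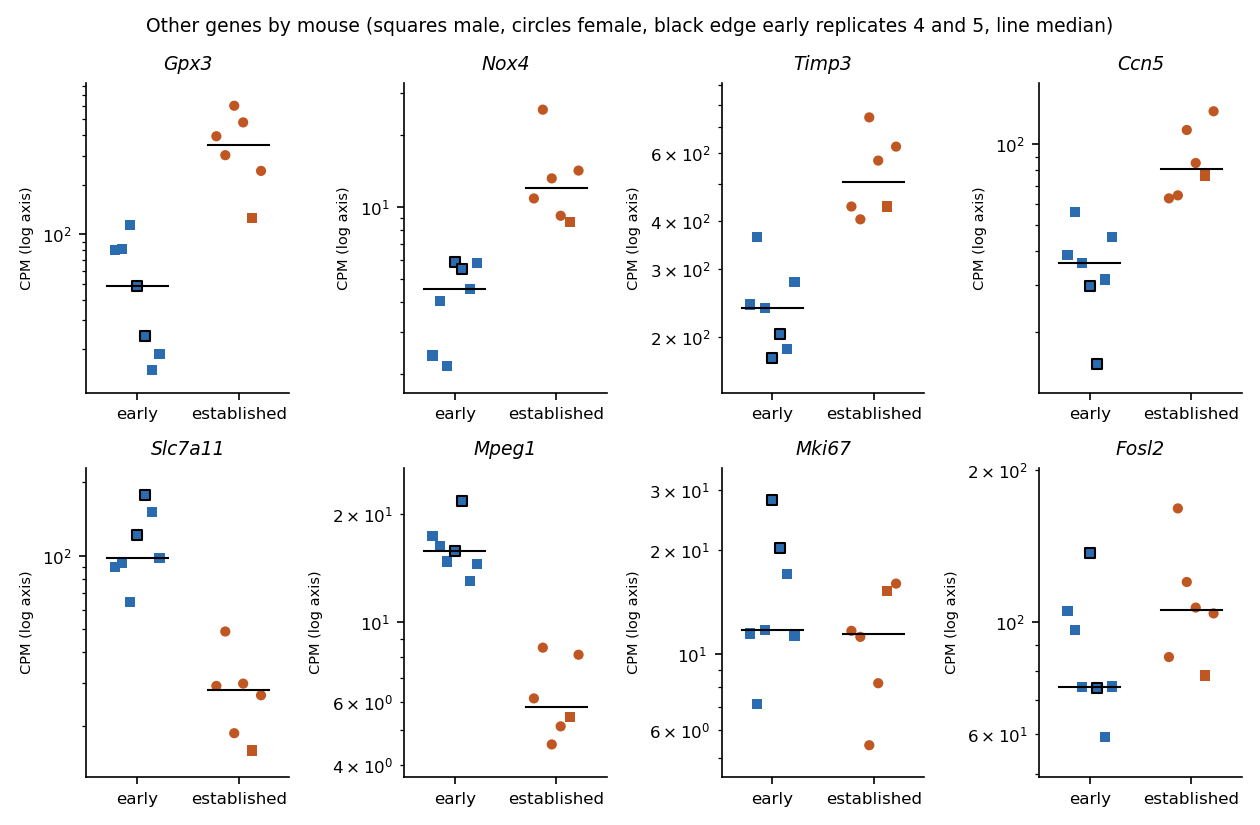
Levels of 8 further genes in CPM on log axes, with 1 point per mouse and the same symbols as for the matrix genes (squares males, circles females, black edges early replicates 4 and 5, lines medians). *Gpx3*, *Nox4*, *Timp3* and *Ccn5* are higher and *Slc7a11* and *Mpeg1* lower in all 6 established mice, while *Mki67* and *Fosl2* overlap between cohorts.

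Few proliferation genes passed the threshold. Of 194 tested genes for DNA replication, mitosis and histones, 4 were higher and 2 lower, beside 1.96% and 2.81% of all genes, with a median log2 fold change of -0.15. *Mki67*, the marker of cycling cells, was at 7.15 to 28.04 CPM in the early mice (median 11.8) and 5.43 to 16.0 CPM in the established mice (median 11.4). The ranges overlapped almost entirely (log2 fold change -0.44 ± 0.31 SE, FDR = 0.415), and *Top2a*, which untangles DNA before division, likewise did not pass (log2 fold change -0.31 ± 0.43 SE, FDR = 0.697). The higher genes were *Pole* (log2 fold change 0.47 ± 0.11 SE, FDR = 0.0290) and *Blm* (log2 fold change 0.36 ± 0.09 SE, FDR = 0.0322), a polymerase subunit and a helicase, and, named after their values were seen, *Prim1* (0.59, FDR = 0.0440) and *Pimreg* (0.66, FDR = 0.0436). The lower genes were the condensin subunit *Ncapd2* (log2 fold change -0.91 ± 0.22 SE, FDR = 0.0364) and the histone *H4c8* (log2 fold change -0.57 ± 0.14 SE, FDR = 0.0330). Replication-dependent histones had negative values for 53 of 54 members (median -0.41), but the median of the established male against the early mice was -0.06 and that of the females -0.47. None of 14 cell cycle inhibitors or 18 imprinted and fetal growth genes of the lists passed by edgeR, with 1 and 3 at an unadjusted p under 0.05. The imprinted genes *Rtl1* (log2 fold change -1.92, FDR = 0.0101) and *Dio3* (2.48, FDR = 0.0448) passed but were not in that list. *Igf2*, the fetal growth factor, was at 1.72 to 18.9 CPM early (median 10.02) and 4.48 to 9.70 CPM established (median 5.12) (log2 fold change -0.72 ± 0.39 SE, FDR = 0.294). *H19* was not analysed here. Without 1 of the mice, the calls of *Pole*, *Blm*, *Ncapd2* and *H4c8* were lost in 6, 10, 8 and 4 of the 13 fits, at FDRs of up to 0.0774, 0.0816, 0.0892 and 0.0816 in that order. The omitted mice were early replicates 1, 4, 5, 6 and 7 and established replicates 1, 2, 3, 4 and 5. When sex was fitted as well, *Pole*, *Blm*, *Ncapd2* and *H4c8* did not pass, with log2 fold changes of 0.84 (FDR = 0.110), 0.59 (0.155), -0.46 (0.452) and -0.40 (0.403) in that order.

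In the insulin-like growth factor axis, 3 of 21 genes were lower (14.3%, against 2.81% of all genes) and none higher (median -0.22). *Htra1*, a secreted protease that cleaves growth factor binding proteins and matrix, was at 263 to 434 CPM in the early mice (median 342) and 139.7 to 234 CPM in the established mice (median 196). The cohorts did not overlap (log2 fold change -0.87 ± 0.14 SE, FDR = 0.00636). *Igfbp2* and *Stc1*, a binding protein and a secreted regulator of binding protein cleavage, were the others, both under 5 CPM on average and named after their values were seen. *Igfbp2* ranged from 1.04 to 18.2 CPM in the early mice (median 1.57) and reached at most 0.272 CPM in the established mice (FDR = 0.0120). *Igf1*, the ligand of the axis, was at 228 to 817 CPM early (median 455) and 166 to 398 CPM established (median 296) and did not pass (log2 fold change -0.78 ± 0.29 SE, FDR = 0.138). With sex as a covariate *Igf1* passed, with a log2 fold change of -2.20 (FDR = 0.0365), from a sex term shared with the Fosl-2(Tg) mice. In the WT males alone its log2 fold change was -1.60.

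Of 38 genes of TGF-beta and BMP signalling, 5 were higher (13.2%) and 2 lower (5.26%), beside 1.96% and 2.81% of all genes, with a median of 0.23. *Fst*, the activin antagonist follistatin, was at 3.99 to 10.2 CPM in the early mice (median 5.44) and 6.06 to 18.5 CPM in the established mice (median 13.2). Only established replicate 2 lay within the early range (log2 fold change 1.22 ± 0.26 SE, FDR = 0.0204). *Id4*, a BMP target (log2 fold change 1.03 ± 0.24 SE, FDR = 0.0310), and *Gdf10*, a BMP family ligand (log2 fold change 0.90 ± 0.19 SE, FDR = 0.0191), also rose. The ligands *Bmp7* (log2 fold change 1.88, FDR = 0.0410) and *Gdf6* (1.85, FDR = 0.00329) were higher at levels of at most 1.43 and 3.23 CPM, and *Gdf5*, a ligand of joint and tendon formation, was lower at levels of at most 1.75 CPM (-1.47, FDR = 0.0148). These 3 low genes were named after their values were seen. *Bmp3*, another BMP family ligand, was lower (log2 fold change -0.87 ± 0.22 SE, FDR = 0.0419). *Wnt9a*, a Wnt ligand of joint formation, was the only one of 28 Wnt and hedgehog genes to pass, at 39.6 to 74.5 CPM in the early mice (median 46.4) and 75.2 to 110.3 CPM in the established mice (median 92.2). Every established mouse was above every early mouse, with the nearest values at 74.5 and 75.2 CPM (log2 fold change 0.81 ± 0.15 SE, FDR = 0.0128). Leaving out 1 mouse at a time, the calls of *Fst*, *Id4*, *Gdf10* and *Bmp3* were lost in 1, 7, 1 and 9 of the 13 fits, at FDRs of up to 0.0560, 0.0704, 0.0538 and 0.0961 in that order. These fits lacked, in turn, early replicates 1, 4, 5, 6 and 7 and established replicates 1, 2, 3, 4, 5 and 6. In the fit with a sex term, *Id4*, *Bmp3* and *Wnt9a* did not pass, with log2 fold changes of 1.04 (FDR = 0.0996), -1.21 (0.1003) and 0.61 (0.157) in that order.

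Of 178 metabolic genes tested, 2 were lower (1.12%, against 2.81% of all genes) and 1 higher (0.562%, against 1.96%). *Pfkl*, the liver-type phosphofructokinase of glycolysis, was at 22.4 to 32.1 CPM early (median 26.7) and 18.6 to 21.3 CPM established (median 19.4) without overlap (log2 fold change -0.46 ± 0.09 SE, FDR = 0.0125). *Cox6a1*, a subunit of cytochrome oxidase, was lower (log2 fold change -0.41 ± 0.11 SE, FDR = 0.0441), and *Lss*, an enzyme of cholesterol synthesis, was higher (log2 fold change 0.43 ± 0.10 SE, FDR = 0.0269). None of 13 mitochondrially encoded genes, 21 adipocyte and lipogenic genes or 24 fatty acid oxidation genes passed by edgeR, with 1, 2 and 1 at an unadjusted p under 0.05. The same held for 21 glucocorticoid and FOXO responsive, 20 clock, 23 immediate-early and 4 sex steroid genes, of which 3, 3, 2 and 0 had an unadjusted p under 0.05. The heat shock gene *Hspa1a* was higher (log2 fold change 0.61 ± 0.15 SE, FDR = 0.0350). In fits without 1 mouse, the calls of *Cox6a1*, *Lss* and *Hspa1a* were lost in 11, 5 and 6 of the 13 fits, at FDRs of up to 0.108, 0.0639 and 0.0790 in that order. Those losses came from the omission of early replicates 1, 2, 4, 5, 6 and 7 and established replicates 1, 2, 3, 4 and 5. After adjustment for sex over all 28 libraries, *Cox6a1*, *Lss* and *Hspa1a* did not pass, with log2 fold changes of -0.57 (FDR = 0.141), 0.60 (0.0676) and 0.87 (0.0559) in that order.

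Macrophage genes mostly had lower values in the established mice, with few past the threshold in either direction. *Mpeg1*, a pore-forming protein of macrophages, was at 13.1 to 21.8 CPM in the early mice (median 15.8) and 4.57 to 8.50 CPM in the established mice (median 5.80). The cohorts were well apart and the male (5.46 CPM) was within the female range (log2 fold change -1.36 ± 0.17 SE, FDR = 0.00329). Of 27 tested macrophage markers, 2 were lower and 2 higher (7.41% each, against 2.81% and 1.96% of all genes), and 23 had negative values (median -0.35). At an unadjusted p under 0.05 by edgeR, 14 were lower and 2 higher. *Adgre1*, which encodes F4/80, was at 36.9 to 52.8 CPM in the early mice (median 49.2) and 19.3 to 35.3 CPM in the established mice (median 27.2). It did not overlap (log2 fold change -0.76 ± 0.14 SE, FDR = 0.0120), nor did *Ms4a7*, a membrane protein of tissue macrophages (log2 fold change -1.20 ± 0.15 SE, FDR = 0.00329). *Lyve1*, a hyaluronan receptor of perivascular macrophages and lymphatic vessels, rose (log2 fold change 0.89 ± 0.23 SE, FDR = 0.0413), as did the phosphatidylserine receptor *Timd4* at levels of at most 2.41 CPM (log2 fold change 0.86, FDR = 0.0261, named after its values were seen). *Cd163*, a scavenger receptor of tissue macrophages, did not pass (log2 fold change -0.25 ± 0.13 SE, FDR = 0.276). The summed level of the macrophage list was 1648 to 2569 CPM in the early mice (median 2219) and 1388 to 2056 CPM in the established mice (median 1819). Without 1 of the mice, the call of *Lyve1* was lost in 11 of the 13 fits, at an FDR of up to 0.103. The omitted mice were early replicates 1, 3, 4, 5 and 6 and established replicates 1, 2, 3, 4, 5 and 6. When sex was fitted as well, *Mpeg1*, *Ms4a7* and *Lyve1* did not pass, with log2 fold changes of -1.29 (FDR = 0.0852), -0.94 (0.128) and 0.73 (0.257) in that order.

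Over all immune lists, macrophage markers included, 6 of 144 tested genes were higher (4.17%, against 1.96% of all genes) and 7 lower (4.86%, against 2.81%). Complement *C2* (log2 fold change 0.95 ± 0.21 SE, FDR = 0.0248) and the C1 inhibitor *Serping1* (log2 fold change 0.79 ± 0.14 SE, FDR = 0.00972) were higher, and *Cd59a*, an inhibitor of the membrane attack complex under 5 CPM on average in the 13 mice, was lower (-1.07, FDR = 0.0320, named after its values were seen). *Gm20547*, which overlaps *C2* on the same strand, rose in parallel from a mean of 208 to 409 CPM. Its part in the *C2* count was not tested. Of 19 chemokines, the stromal chemokine *Cxcl12* was higher without overlap (11.01 to 47.1 CPM early (median 36.4) and 47.2 to 95.6 CPM established (median 63.9), log2 fold change 1.05 ± 0.28 SE, FDR = 0.0473). *Cxcl14*, a chemokine of fibroblasts (180.3 to 501 CPM early (median 252) and 68.4 to 222 CPM established (median 113), log2 fold change -1.32 ± 0.30 SE, FDR = 0.0278), and the membrane-bound *Cxcl16* (log2 fold change -0.84 ± 0.16 SE, FDR = 0.0127) were lower, and *Cxcl13* was higher at levels of at most 4.18 CPM (2.70, FDR = 0.0189, named after its values were seen). *Zmynd15*, which overlaps *Cxcl16* on the opposite strand, fell in parallel from a mean of 13.1 to 5.82 CPM. Of 52 interferon-stimulated genes, *Oas1a* (-1.30, FDR = 0.00714) and *Gbp5* (-1.002, FDR = 0.0246) were lower, both below 5 CPM on average and named after their values were seen. No gene of MHC class I or class II presentation passed by edgeR, with 1 of 15 and 0 of 7 at an unadjusted p under 0.05. *H2-K1* was at 47.2 to 68.0 CPM early (median 59.4) and 43.0 to 52.7 CPM established (median 46.9) (log2 fold change -0.33 ± 0.09 SE, FDR = 0.0535), and *Cd74* was at 1.55 to 9.97 CPM early (median 2.37) and 1.59 to 13.5 CPM established (median 4.28) (log2 fold change 0.42 ± 0.55 SE, FDR = 0.688). Most markers of T, B, mast cells and neutrophils had too few counts to test, and the 2, 2, 1 and 2 genes tested did not pass by edgeR (2 at an unadjusted p under 0.05). When 1 mouse was left out, the calls of *C2*, *Cxcl12* and *Cxcl14* were lost in 3, 10 and 4 of the 13 fits, at FDRs of up to 0.0635, 0.108 and 0.0678 in that order. The mice left out in these fits were early replicates 1, 2, 4, 5 and 6 and established replicates 1, 2, 3, 4 and 5. Once sex entered the fit, *C2*, *Serping1*, *Cxcl12* and *Cxcl16* did not pass, with log2 fold changes of 0.50 (FDR = 0.495), 0.26 (0.675), 0.55 (0.461) and -0.97 (0.0517) in that order.

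RNA of neighbouring tissues was measured beside these results. None of 44 skeletal muscle genes passed by edgeR (1 at an unadjusted p under 0.05), although their median log2 fold change was 0.76, and against the early mean it was 3.86 in the male and -0.57 in the females. *Acta1*, skeletal actin, ranged from 19.7 to 2040.2 CPM in the early mice (median 268) and 10.3 to 3204 CPM in the established mice (median 402). Adding a muscle score to the fit raised the calls to 537 higher and 619 lower genes and kept all 720, whereas in the 4 early and 3 established libraries with little muscle 4 genes were higher and 5 lower. The libraries with little muscle included neither early replicates 4 and 5 nor the established male. Of 10 keratinocyte markers, the junction gene *Dsp* was higher (6.02 to 13.4 CPM early (median 9.21) and 16.1 to 28.1 CPM established (median 18.3), log2 fold change 1.07 ± 0.17 SE, FDR = 0.00636), as was *Perp* at levels of at most 6.99 CPM (1.13, FDR = 0.00953, named after its values were seen), while the summed list was 47.98 to 108 CPM in the early mice (median 84.6) and 81.9 to 124 CPM in the established mice (median 90.6) and the defining keratin *Krt14* had too few counts to test. Among sheath and fascia fibroblast markers, *Dpp4* (log2 fold change -1.06 ± 0.25 SE, FDR = 0.0330) and *Ly6c1* (log2 fold change -1.05 ± 0.27 SE, FDR = 0.0448) were lower, 2 of 13 with a list median of -0.06 and 6 positive values. The summed list was 6542 to 17217 CPM in the early mice (median 11732) and 12479 to 16646 CPM in the established mice (median 14090.3). Of 12 pericyte and smooth muscle genes, *Ndufa4l2*, a hypoxia-induced mitochondrial protein, was the one lower gene, without overlap (log2 fold change -0.86 ± 0.17 SE, FDR = 0.0170), while 10 of the 12 had positive values (median 0.27). The summed list was 383 to 969 CPM in the early mice (median 560.0) and 468 to 1312 CPM in the established mice (median 664). No endothelial (17), Schwann cell (12) or erythroid gene (4) passed by edgeR, with 1, 3 and 1 at an unadjusted p under 0.05, and *Hba-a1*, hemoglobin alpha, was at 0.539 to 8.22 CPM early (median 2.98) and 0.380 to 4.51 CPM established (median 1.25). The part of these tissues in the other results was not tested beyond these fits. Leaving out 1 mouse at a time, the calls of *Dpp4* and *Ly6c1* were lost in 5 and 8 of the 13 fits, at FDRs of up to 0.0827 and 0.106 in that order. These fits lacked, in turn, early replicates 1, 4, 6 and 7 and established replicates 1, 3, 4 and 5. In the fit with a sex term, *Dpp4* and *Ly6c1* did not pass, with log2 fold changes of -1.26 (FDR = 0.0619) and -1.28 (0.0569) in that order.

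The log2 change of *Col1a1*, *Col1a2*, *Col11a1* and *Col6a2* between cohorts was smaller in WT than in Fosl-2(Tg) tendon, while a difference between genotypes was not established for *Col3a1* (FDR = 0.511), *Col5a1* (FDR = 0.0963) and *Col20a1* (FDR = 0.125). In 1 fit of all 28 libraries, the interaction of genotype and cohort passed for 1182 of 15540 genes (7.61%), and 891 genes (5.73%) changed between cohorts in WT against 7375 (47.5%) in Fosl-2(Tg) mice. *Col1a2* had a log2 fold change of -3.91 in Fosl-2(Tg) mice, and the WT change was higher by 2.69 ± 0.63 SE, FDR = 0.0124. The same direction held for *Col1a1* (3.04 ± 0.71 SE, FDR = 0.0125), *Sparc* (2.49 ± 0.54 SE, FDR = 0.00899), *Loxl2* (1.95 ± 0.41 SE, FDR = 0.00671) and *Adamts2* (1.58 ± 0.30 SE, FDR = 0.00387). *Hcn4* had a log2 fold change of -0.09 in Fosl-2(Tg) mice, and the WT change was higher (difference 1.65 ± 0.31 SE, FDR = 0.00387). *Hcn4* was named for its change in these same WT mice, which the interaction uses again, so its difference may be overstated. This holds for the other genes named by their WT change. *Mpeg1* and *Adgre1* went the other way, with WT minus Fosl-2(Tg) differences of -1.26 (SE 0.34, FDR = 0.0245) and -0.97 (SE 0.23, FDR = 0.0133). For *Gpx3* (-1.27 ± 0.58 SE, FDR = 0.172), *Nox4* (-0.19 ± 0.51 SE, FDR = 0.850), *Timp3* (-0.59 ± 0.26 SE, FDR = 0.158) and *Runx2* (0.95 ± 0.46 SE, FDR = 0.192), a difference between genotypes was not established. The established Fosl-2(Tg) mice likewise included 1 male only, and the interaction count was 714 without the established males of both genotypes. In that fit *Mpeg1* did not pass (-1.15, FDR = 0.0614), while *Adgre1* did (-1.07, FDR = 0.00732).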

How the data were processed

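The 13 WT libraries were taken from the labels, which give genotype, cohort, sex and replicate number, and the ages come from the study's text. Total RNA was depleted of ribosomal RNA and made into NEBNext Ultra libraries. The authors mapped reads with STAR to GRCm39 with GENCODE release M26 and used featureCounts to count reads per gene. The deposited table holds these counts without normalization, and whether genes were removed from it beforehand was not examined. Tool versions, the strand setting and the treatment of multi-mapping reads are not given in the sources used here. Of 25719 identifiers, 25505 were named with GENCODE release M39, on the same assembly. The 214 without a name (0.158% to 0.201% of counts) and 1110 genes on X and Y (1.43% to 2.37%) were left out, which kept 24395.

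Genes with few counts were removed (filterByExpr, minimum count 10, minimum total 15), counts were scaled by TMM, and cohorts were compared by edgeR 4.0.16's quasi-likelihood test in R 4.3.3 without covariates, with Benjamini-Hochberg adjustment (FDR). Values per mouse are CPM, with 2 as the prior count on the log2 scale. The gene lists and members were chosen with earlier results of these data known. Named genes were, per direction, the 12 DEGs with the largest log2 fold change among those without overlap, a mean of at least 5 CPM and an ordinary symbol, up to 4 genes past the threshold per list and direction with a mean of at least 5 CPM, and 24 fixed genes. Single values were tested by exact permutation. The study states that animals were taken at random from several litters, but not which litter each mouse came from, so p-values measure the spread between mice. Replicate pairs had Spearman's rho across genes of 0.943 to 0.995, and no pair was a duplicate. Alternatives were a filter at 1 CPM on average or none, RLE scaling, DESeq2 1.42.0 (the tool of the authors), limma 3.58.1 voom with quality weights, all 28 libraries, the replicate block, sex and muscle covariates, males only, X and Y genes kept, removal of muscle, keratinocyte and erythroid genes, thinning to the smallest total, and leaving out each mouse. The fits without early replicates 4 and 5 and with little muscle, and the placing of the held-out male, were chosen after seeing the data. The fits were checked on simulated counts. Figures were drawn with matplotlib 3.10.9.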

Additional observations from a re-analysis of the deposited data

Results flagged for a closer look

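Among the 94 named genes, 188 groups of 6 or 7 mice were examined for a single mouse far from the rest, and 5 stood out by Dixon's criterion, where chance gives about 1 in 20 groups. Early replicate 5 was the highest early mouse for *Rnf112* (24.4 CPM) and *Tmem132e* (22.7 CPM) and the lowest for *C2* (5.61 CPM). Among established mice, the male, replicate 5, was the lowest for *Serping1* (401.3 CPM), and replicate 2 was the highest for *Col3a1* (2834 CPM). These mice were kept in all values above.

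The change between cohorts differed between WT and Fosl-2(Tg) mice for 21 of the 94 named genes by the interaction test of edgeR (FDR at most 0.05, with 7.61% of all genes past it). Apart from the fixed genes, these were named by their change in the same WT mice. Their share can therefore not be weighed against that of all genes. The WT minus Fosl-2(Tg) log2 difference was positive for 14 genes, namely *Hcn4* (1.65), *Slc7a11* (1.42), *Gpx7* (1.20), *Col1a2* (2.69), *Col11a1* (1.95), *Col6a2* (1.42), *Adamts2* (1.58), *Bmp1* (0.91), *Loxl2* (1.95), *Sparc* (2.49), *Matn2* (1.35), *Cxcl14* (1.98), *Col1a1* (3.04) and *Scx* (1.41). Apart from *Hcn4*, each of these genes fell past the threshold in Fosl-2(Tg) mice, with log2 fold changes from -4.33 for *Col1a1* to -1.60 for *Bmp1*. The difference was negative for 7 genes, namely *Serpina3n* (-2.28), *Mpeg1* (-1.26), *Ncapd2* (-1.05), *Pfkl* (-0.69), *Adgre1* (-0.97), *Cd163* (-1.44) and *Hba-a1* (-3.50), among them the macrophage genes *Mpeg1*, *Adgre1* and *Cd163*. Without the established males, *Mpeg1* (FDR = 0.0614), *Gpx7* (0.0755) and *Ncapd2* (0.0609) did not pass the interaction test of edgeR. The causes were not tested.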

How the results depend on the processing

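None of the 74 named genes past the threshold changed direction in an alternative, while 8 of the 20 others did (*Col3a1*, *Fmod*, *Lum*, *Comp*, *Top2a*, *Cd74*, *Acta1* and *Fosl2*). With sex as a covariate, 34 of the 74 stayed past the threshold, and 2 of the 20 others (*Igf1* and *Mkx*) passed it. Of the 74, 35 stayed past it whichever mouse was left out, while 39 were lost at least once. The numbers of calls moved more. They were, for higher and lower genes, 627 and 920 by DESeq2 (DEGs 173 and 194, matrix genes 10 and 37), 626 and 909 by limma voom, 537 and 619 with the muscle covariate (8 higher matrix genes), 169 and 250 with the sex covariate (3 higher matrix genes), 94 and 182 after thinning (DEGs 45 and 60, 13 lower matrix genes), 119 and 267 without early replicates 4 and 5 (DEGs 51 and 69, 10 lower matrix genes), 4 and 5 with little muscle (DEGs 3 and 4, matrix genes 0 and 1), and 0 in every category in the males alone. Leaving out 1 mouse gave 90 to 363 higher and 134 to 555 lower genes, 43 to 104 and 48 to 143 DEGs, and 5 to 7 higher and 5 to 26 lower matrix genes. The share of variance between cohorts was 5.39% to 9.54% in those fits. RLE scaling, the filters, all 28 libraries, X and Y genes kept and the removal of muscle, keratinocyte and erythroid genes kept the counts of all higher and all lower genes within 1.5 times. The number of genes with an interaction was 714 without the established males. The causes were not tested.

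Replicate numbers were shared by the cohorts, but same-numbered mice did not deviate together (correlations from -0.69 to 0.72, and 1 of 6 was highest with its own number), so they were not treated as pairs. With the replicate block, 137 genes were higher and 254 lower, with 56 and 59 DEGs, 6 and 8 matrix genes and 32 lower ribosomal protein genes.

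Fewer than 10 mice per cohort and the spread of muscle and collagen RNA limit what can be called, and a gene that missed the threshold is not shown to be alike in both cohorts.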

Other observations

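Several gene groups outside the comparisons above were listed after their values were seen, so their counts describe the data and support nothing further. Among 61 tested genes of the amino acid stress response and of serine, one-carbon and proline metabolism, 11 were lower (18.0%, against 2.81% of all genes) and 1 was higher, with a median log2 fold change of -0.17. *Nupr1*, a stress-induced chromatin protein, ranged from 141 to 840.4 CPM in the early mice (median 341) and 90.1 to 146 CPM in the established mice (median 105). Its early values spread widely and its highest established value lay just above the lowest early one (log2 fold change -1.82 ± 0.36 SE, FDR = 0.0164). *Asns*, asparagine synthetase, was at 12.02 to 41.1 CPM in the early mice (median 28.5) and 7.09 to 15.7 CPM in the established mice (median 10.2). The cohorts overlapped in part (log2 fold change -1.28 ± 0.30 SE, FDR = 0.0289). *Bcat1*, which starts the breakdown of branched-chain amino acids (log2 fold change -1.78 ± 0.43 SE, FDR = 0.0349), and the mitochondrial one-carbon enzymes *Aldh1l2* (log2 fold change -1.53 ± 0.40 SE, FDR = 0.0441) and *Mthfd2* (log2 fold change -1.04 ± 0.25 SE, FDR = 0.0319) were lower too, besides *Slc7a11*. Without early replicates 4 and 5, *Asns* (-1.06, FDR = 0.0850), *Bcat1* (-1.22, FDR = 0.0920), *Aldh1l2* (-0.94, FDR = 0.0864) and *Mthfd2* (-0.73, FDR = 0.0697) did not pass, and *Mthfd2* did not with sex as a covariate either (FDR = 0.0850). The serine synthesis genes *Psat1* (log2 fold change -1.12 ± 0.38 SE, FDR = 0.102) and *Phgdh* (log2 fold change -1.04 ± 0.30 SE, FDR = 0.0652) did not pass.

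Of 13 thyroid hormone genes tested, the deiodinases were higher in established mice and no other gene passed. *Dio2*, which activates the hormone, ranged from 2.13 to 8.42 CPM in the early mice (median 3.94) and 6.45 to 81.8 CPM in the established mice (median 22.7) (log2 fold change 2.61 ± 0.51 SE, FDR = 0.0152). The lowest established value was the male, within the early range, and with sex as a covariate the *Dio2* log2 fold change was 0.65 (FDR = 0.627). *Dio3*, which inactivates it, ranged from 0.140 to 1.89 CPM in the early mice (median 0.201) and 1.35 to 7.37 CPM in the established mice (median 3.34) (log2 fold change 2.48 ± 0.65 SE, FDR = 0.0448). *Dio3* did not pass with sex as a covariate (FDR = 0.0839) or without early replicates 4 and 5 (FDR = 0.133). *Dio3* and *Rtl1* are both imprinted genes of the same cluster on chromosome 12, and *Rtl1* was lower. Among cell-matrix adhesion genes, *Lama5* and *Lama3* (log2 fold change 0.76 ± 0.18 SE, FDR = 0.0355) were the higher of 10 laminins, and *Itgb4*, the integrin chain of hemidesmosomes (log2 fold change 1.45 ± 0.37 SE, FDR = 0.0401), *Itgb7* (log2 fold change 1.10 ± 0.20 SE, FDR = 0.0120) and *Itgb8* (log2 fold change 0.59 ± 0.13 SE, FDR = 0.0256) the higher of 22 integrins, with *Itga4* lower (log2 fold change -0.41 ± 0.10 SE, FDR = 0.0438). In the fit with sex, *Itgb4* was at 0.72 (FDR = 0.417), and *Itgb7*, *Itgb8*, *Itga4* and *Lama3* did not pass either (FDR = 0.136, 0.257, 0.0549 and 0.0728). Without early replicates 4 and 5, *Itgb4* (0.115), *Itgb8* (0.0940), *Itga4* (0.0864) and *Lama3* (0.104) had an FDR above the threshold.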
